A study of Mus musculus with 26 samples.

Results

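The cadherin switch and epithelial-mesenchymal transition (EMT) genes are 10 genes chosen by name: the cadherins Cdh1 and Cdh2, the epithelial adhesion gene Epcam, the mesenchymal genes Vim and Fn1, and the transcription factor genes Snai1, Snai2, Zeb1, Zeb2, and Twist1. Of these, 9 were found among the 15646 genes of the RNA table, and the same 9 had a captured promoter fragment among the 19022 that held at least 1 contact in any list. Fn1, the gene of fibronectin, was not analysed here. All 9 genes reached 1 RPKM (a read count scaled to gene length and library size) in at least 1 cell state.

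The study compared mouse embryonic stem cells (ESCs), which resemble the pre-implantation epiblast, with epiblast-derived stem cells (EpiSCs), which resemble the post-implantation epiblast, and with ESCs that lack the pluripotency factor gene Nanog. RNA-seq was labelled for 3 WT ESC, 3 Nanog-/- ESC, and 4 EpiSC samples. Promoter capture Hi-C (PCHi-C), which enriches chromatin ligation products for captured promoters, was labelled as 5 sequencing lanes of WT ESCs, 5 of Nanog-/- ESCs, and 2 of EpiSCs. The question here was which of these adhesion and EMT genes differ in RNA level between the pluripotent states, and which fragments their promoters contact in each.

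WT ESCs were E14Tg2a (129P2/OlaHsd), and the Nanog-/- ESCs were RCNβH-B(t), a single line derived from E14Tg2a and used at passages 20 to 30. Both ESC lines grew on gelatin in 15% FBS and 1000 U/ml LIF, and 25 µg/ml hygromycin was added while the Nanog-/- line was expanded. EpiSCs were an embryo-derived 129S2 line on fibronectin (10 µg/ml) in N2B27 with 20 ng/ml Activin A and 12 ng/ml bFGF. The strain field of every sample reads C57BL/6, which differs from these lines. Cell state, line, culture surface, and medium changed together between ESCs and EpiSCs and cannot be told apart.

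E-cadherin, the product of Cdh1, and EPCAM hold epithelial cells together, whereas N-cadherin, the product of Cdh2, and the intermediate filament protein vimentin are typical of mesenchymal and neural cells. In EMT, transcription factors of the SNAIL, ZEB, and TWIST families repress epithelial genes, in part by binding E-box motifs in their promoters, and cells exchange E-cadherin for N-cadherin. In the mouse embryo this exchange takes place when epiblast cells ingress through the primitive streak at gastrulation.

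The RNA table held 1 value per gene and state, the median RPKM that the authors took over a group's samples, so no value below has a replicate error and no difference was tested. EpiSC values ran higher across the table: over 8951 genes at 1 RPKM or more in all states the median EpiSC/WT ratio was 1.88, and EpiSC values were divided by it unless stated otherwise, a shift of 0.91 on the log2 scale. The same ratio for Nanog-/- ESCs was 1.05, and those values were left as deposited. A difference is called higher or lower when it reached 2-fold on the log2(RPKM + 1) scale, which understates the change of low genes. Nanog, the targeted gene, was at 418 RPKM in WT ESCs, 22.3 in Nanog-/- ESCs, and 192 in EpiSCs. The PCHi-C data held 1 combined list per cell type with 100492 different fragment pairs in WT ESCs, 74931 in Nanog-/- ESCs, and 87369 in EpiSCs, on 2177383, 1440356, and 1651422 read pairs.

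Promoter sequence was available from RefSeq (GRCm38.p6) for 5 of the 10 genes. Shown are the 250 bases before the start of Snai1, Epcam, Twist1, and Zeb2, because Snai1, Twist1, and Zeb2 encode factors that bind E-boxes and Epcam is an epithelial gene. All of them lie inside the captured fragment whose contacts are given below. Each is written 5′ to 3′ on the gene's strand, and capitals mark CACCTG or CAGGTG, the E-box form searched (each is the reverse complement of the other, so both strands were covered). The windows are chr2:167537945-167538194 (plus strand) for Snai1, chr17:87635729-87635978 (plus strand) for Epcam, chr12:33957421-33957670 (plus strand) for Twist1, and chr2:45117443-45117692 (minus strand) for Zeb2.
Snai1: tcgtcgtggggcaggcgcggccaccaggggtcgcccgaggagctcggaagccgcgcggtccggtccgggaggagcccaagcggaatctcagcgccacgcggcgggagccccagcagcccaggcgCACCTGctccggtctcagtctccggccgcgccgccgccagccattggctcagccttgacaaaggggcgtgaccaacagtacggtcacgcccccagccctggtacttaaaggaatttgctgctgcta
Epcam: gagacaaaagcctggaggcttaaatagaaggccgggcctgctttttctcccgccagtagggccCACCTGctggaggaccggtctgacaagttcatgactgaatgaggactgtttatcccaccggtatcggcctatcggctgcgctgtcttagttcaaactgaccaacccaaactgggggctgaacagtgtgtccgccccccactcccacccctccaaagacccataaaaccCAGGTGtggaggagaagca
Twist1: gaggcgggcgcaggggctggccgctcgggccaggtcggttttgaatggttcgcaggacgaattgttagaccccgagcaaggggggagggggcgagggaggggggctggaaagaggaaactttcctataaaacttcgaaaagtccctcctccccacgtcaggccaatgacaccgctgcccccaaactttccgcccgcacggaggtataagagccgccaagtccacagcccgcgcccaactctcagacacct
Zeb2: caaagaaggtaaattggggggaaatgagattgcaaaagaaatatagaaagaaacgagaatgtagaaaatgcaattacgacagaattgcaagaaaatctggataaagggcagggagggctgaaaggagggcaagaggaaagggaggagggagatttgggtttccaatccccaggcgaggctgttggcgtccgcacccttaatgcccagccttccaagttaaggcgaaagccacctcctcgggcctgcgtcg

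The Snai1 window held 1 match, 126 bases before the start, and the Epcam window held 2, at 187 and 19 bases before it. The Twist1, Zeb2, and Vim windows held none. Of 27025 promoter windows of the same length, 4620 (17.1%) held a match, so a match is common and is given as a description only. The Snai1 window was the most GC-rich of the 4 shown, with 70.0% G and C and a CpG observed over expected ratio of 0.882. Twist1 had 62.4% and 0.74, Zeb2 had 49.6% and 0.633, and Epcam had 56.4% and 0.405. The medians over all windows were 52.0% and 0.378.

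Among the 9 genes, 5 were higher and 1 was lower in EpiSCs than in WT ESCs: Cdh2, Vim, Zeb1, Zeb2, and Twist1 were higher, and Cdh1 was lower. Of the 10729 genes at 1 RPKM or more in a state, 15.3% were higher and 14.1% were lower in this comparison. The median log2 ratio was 1.54 over the 9 genes and 0.0034 over all genes compared. Without the scaling, 7 of the 9 genes were higher and 0 lower, against 42.8% and 8.43% of all genes. In Nanog-/- ESCs only 1 of the 9 genes, Zeb2, was higher than in WT ESCs and 1, Cdh1, was lower, against 2.46% and 1.98% of all genes. The median log2 ratio there was 0.79 over the 9 genes and 0.07 over all genes. Between EpiSCs and Nanog-/- ESCs, Cdh2 and Vim were higher in EpiSCs (13.5% of all genes) and none of the 9 was lower (15% of all genes). Without the scaling 6 were higher and 0 lower, against 39.7% and 8.29%. All 3 comparisons share groups and are not independent of one another.

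**Figure D1:**
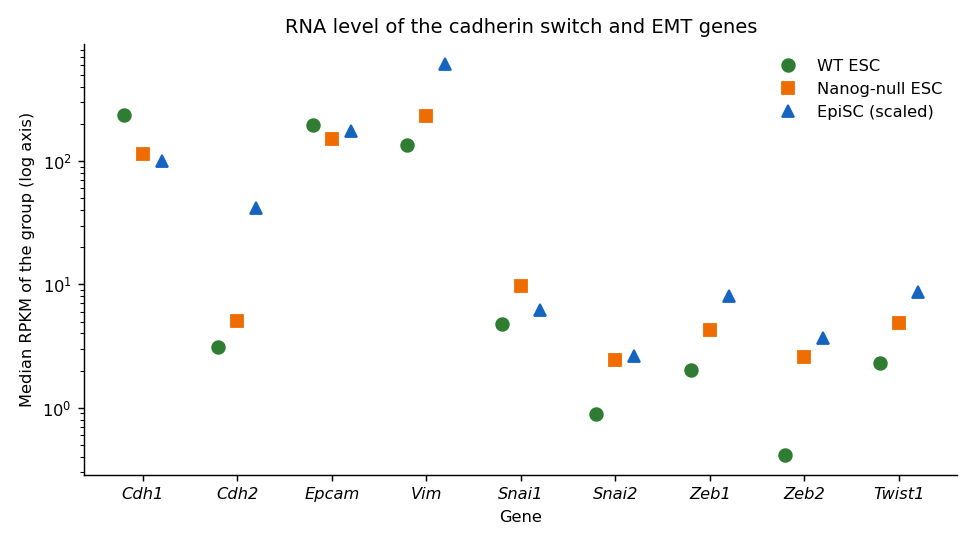
Median RPKM of the 9 genes (log axis) in WT ESCs (circles), Nanog-/- ESCs (squares), and EpiSCs (triangles, divided by the median EpiSC/WT ratio). Each point is 1 group median without an error. Cdh1 goes from 238 to 100 RPKM between WT ESCs and EpiSCs, while Cdh2 goes from 3.10 to 41.5 and Vim from 134 to 617.

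Cdh1 was the most abundant of the 9 transcripts in WT ESCs, at 238 RPKM. It was at 115 RPKM in Nanog-/- ESCs and 100 RPKM in EpiSCs. WT ESCs thus held 2.07 times the Nanog-/- level and 2.37 times the EpiSC level. The log2 ratios were -1.04 for Nanog-/- and -1.24 for EpiSCs against WT ESCs. The Nanog-/- value lies just past the 2-fold limit. Without the scaling, EpiSCs were at 188 RPKM and the log2 ratio was -0.33, so the call for Cdh1 between EpiSCs and WT ESCs depends on the scaling. Against Nanog-/- ESCs the EpiSC log2 ratio was -0.20 with it and 0.71 without it. On every scale Cdh1 stayed among the more abundant genes of each state, at percentile 97.7 of all genes in WT ESCs, 94.2 in Nanog-/- ESCs, and 95.3 in EpiSCs.

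Cdh2 moved the other way and by more. It was at 3.10 RPKM in WT ESCs, 5.09 in Nanog-/- ESCs, and 41.5 in EpiSCs, which is 13.4-fold higher in EpiSCs than in WT ESCs (log2 ratio 3.37) and 8.15-fold higher than in Nanog-/- ESCs (2.80). Its EpiSC/WT ratio was at percentile 99.5 of all genes compared. Nanog-/- ESCs differed from WT ESCs by 1.64-fold (0.57), short of the limit.

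The ratio of the 2 cadherins within a state needs no scaling. Cdh1 was 76.5 times as abundant as Cdh2 in WT ESCs, 22.6 times in Nanog-/- ESCs, and 2.41 times in EpiSCs. Cdh1 RNA therefore remained the more abundant of the 2 in every state, including EpiSCs.

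Epcam, the second epithelial adhesion gene, did not follow Cdh1. It was at 195 RPKM in WT ESCs, 150 in Nanog-/- ESCs, and 176 in EpiSCs, and no comparison reached 2-fold (log2 ratios -0.15 for EpiSCs and -0.38 for Nanog-/- against WT ESCs). Without the scaling the EpiSC level was 331 RPKM, above both others, with a log2 ratio of 0.76 to WT ESCs and 1.14 to Nanog-/- ESCs, so the direction for Epcam in EpiSCs turns on the scaling. The Epcam/Cdh1 ratio went from 0.822 in WT ESCs to 1.31 in Nanog-/- ESCs and 1.76 in EpiSCs.

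Vim had the highest level of the 9 genes in EpiSCs. It was at 134 RPKM in WT ESCs, 231 in Nanog-/- ESCs, and 617 in EpiSCs, at percentile 99.8 of all genes there. EpiSCs were 4.61-fold above WT ESCs (log2 ratio 2.20) and 2.67-fold above Nanog-/- ESCs (1.41). Vim RNA was already abundant in WT ESCs, where it was at percentile 95.4. The Vim/Epcam ratio was 0.685 in WT ESCs, 1.54 in Nanog-/- ESCs, and 3.51 in EpiSCs, and the Vim/Cdh1 ratio was 0.563, 2.02, and 6.17. Both ratios were lowest in WT ESCs and highest in EpiSCs, with Nanog-/- ESCs between them.

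**Figure D2:**
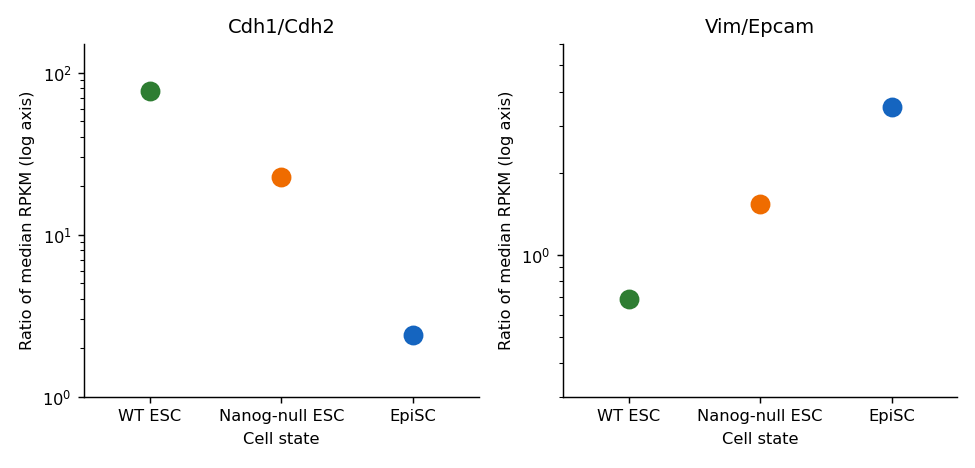
Ratio of Cdh1 to Cdh2 (left) and of Vim to Epcam (right) within each cell state, from group median RPKM without scaling, on log axes. Each point is 1 state without an error. Cdh1/Cdh2 goes from 76.5 in WT ESCs to 2.41 in EpiSCs, and Vim/Epcam from 0.685 to 3.51.

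The 5 transcription factor genes were all low, and all 5 had their lowest level in WT ESCs. SNAI1 and SNAI2 are the zinc finger repressors of the SNAIL family. Snai1 was at 4.73 RPKM in WT ESCs, 9.77 in Nanog-/- ESCs, and 6.25 in EpiSCs. It is the only 1 of the 5 with its highest level in Nanog-/- ESCs, at 2.07 times the WT level (log2 ratio 0.91), and the EpiSC difference from WT ESCs was 1.32-fold (0.34). With no scaling the EpiSC log2 ratio was 1.16 and Snai1 was highest in EpiSCs, at 11.8 RPKM, so both the call and the order of its levels turn on the scaling. The log2 ratio of EpiSCs to Nanog-/- ESCs was -0.57 with it and 0.25 without it. Snai2 was at 0.894 RPKM in WT ESCs, 2.43 in Nanog-/- ESCs, and 2.61 in EpiSCs. Its log2 ratios to WT ESCs were 0.86 and 0.93, both just short of the limit on this scale, although the plain ratios were 2.72-fold and 2.92-fold.

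ZEB1 and ZEB2 are zinc finger and homeobox repressors that can act on Cdh1. Zeb1 was at 2.04 RPKM in WT ESCs, 4.23 in Nanog-/- ESCs, and 8.05 in EpiSCs (log2 ratios to WT ESCs 0.78 and 1.58). Zeb2 was the lowest of the 9 genes in WT ESCs, at 0.412 RPKM, and was at 2.57 in Nanog-/- ESCs and 3.68 in EpiSCs. It had the largest plain ratio of the 9 in Nanog-/- ESCs, 6.25-fold (log2 ratio 1.34), and 8.93-fold in EpiSCs (1.73). The Zeb1/Zeb2 ratio was 4.95 in WT ESCs, 1.64 in Nanog-/- ESCs, and 2.19 in EpiSCs. The RNA library kit does not mark strand, and Zeb2os and Gm27761 run over Zeb2 exons, and Gm10125 over a Zeb1 exon, on the opposite strand, so reads from these partners cannot be told apart.

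TWIST1 is a basic helix-loop-helix factor of mesoderm and neural crest. Twist1 was at 2.31 RPKM in WT ESCs, 4.90 in Nanog-/- ESCs, and 8.62 in EpiSCs, or 2.12-fold (log2 ratio 0.83) and 3.73-fold (1.54) above WT ESCs. Zeb1 and Twist1 had much the same levels in each state. Against all genes, the Nanog-/- ratios of the 5 factor genes stood at percentiles 95.3 (Zeb1) to 98.9 (Zeb2), although 4 of the 5 did not reach 2-fold on the log2(RPKM + 1) scale. In EpiSCs, where the spread over all genes was wider, they stood at percentiles 65.1 (Snai1) to 94.0 (Zeb2).

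**Figure D3:**
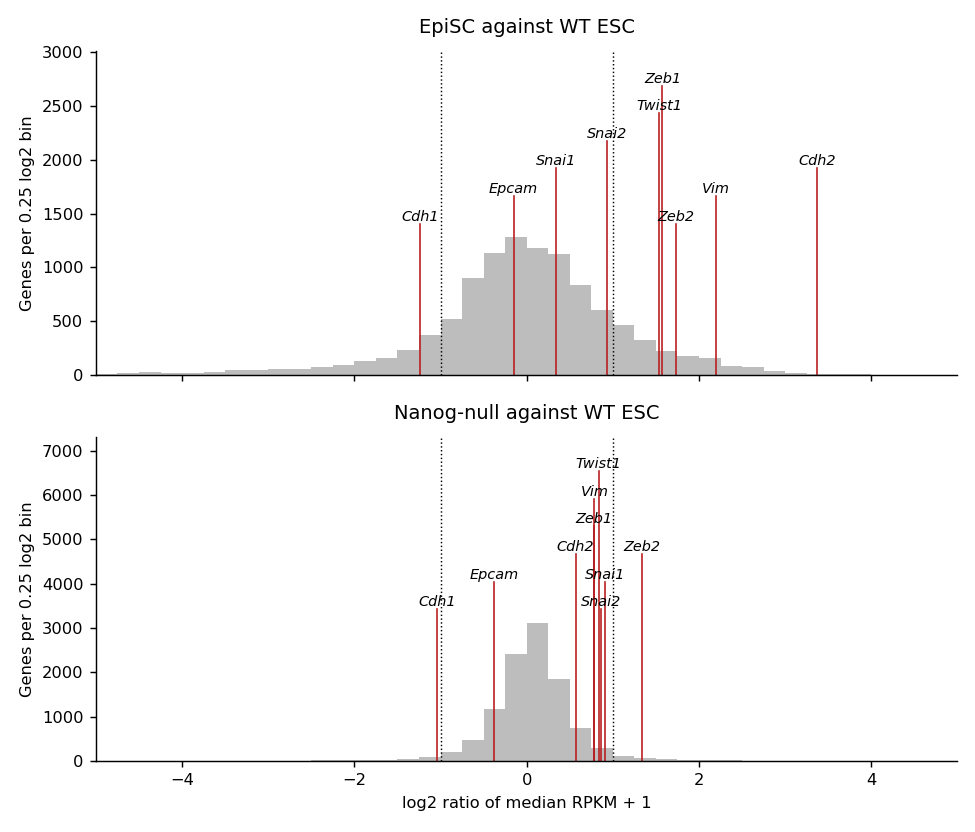
Distribution over 10729 genes of the log2 ratio of median RPKM + 1 in EpiSCs (top) and Nanog-/- ESCs (bottom) against WT ESCs, in bins of 0.25, with the 9 genes as red lines and the 2-fold limits dotted. Line heights only separate the names, and genes beyond the ends of the axis are not drawn. In EpiSCs Cdh2 lies at 3.37 and Vim at 2.20, and in Nanog-/- ESCs only Zeb2 (1.34) and Cdh1 (-1.04) lie past the limits.

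For each of the 9, the genes with the nearest 3 group medians were found by Euclidean distance on the log2(RPKM + 1) scale. This distance counts the level as well as the change between states. The number of near genes therefore does not measure how unusual a change is. For Vim the nearest were Mdk at a distance of 0.54 and Bst2 at 0.87, and for Cdh2 they were Tdrkh at 0.40, Zfp362 at 0.52, and Timp3 at 0.53. Cdh1 had Actl6a, Tfrc, and Ifitm3 at 0.44 each. No gene lay within 0.25 of Vim, Cdh2, or Cdh1. Twist1 had 6 genes that near, with Sgpp1 at 0.07, Gdpd1 at 0.07, and Ccnjl at 0.18, and Zeb1 also had 6, with D17H6S53E at 0.13, Sgpp1 at 0.17, and Ccnjl at 0.17. Epcam had 7 (Srrm2 0.14, Ccnb2 0.15, Aplp2 0.17), Snai2 had 6 (Dnaja4 0.07, Ccdc65 0.10, Mical2 0.10), Snai1 had 6 (Zfhx2 0.16, Nceh1 0.19, Tmem28 0.21), and Zeb2 had 1 (Slfn2 0.19, then Hoga1 0.36 and Lrrk1 0.40). With 3 values per gene these distances are descriptions.

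Other genes of the epithelial and mesenchymal programs were read from lists that hold none of the 10 genes. Of all genes compared, 15.3% were higher and 14.1% lower in EpiSCs, and 2.46% and 1.98% in Nanog-/- ESCs, and the list counts below are read beside these shares. Of 25 mesenchymal matrix, integrin, and cytoskeleton genes at 1 RPKM or more, 18 were higher and 0 lower in EpiSCs than in WT ESCs, with a median log2 ratio of 1.16. The largest ratios were those of the collagen gene Col3a1 (3.91) and the matricellular gene Cyr61 (3.82). In Nanog-/- ESCs 4 of the 25 were higher and 0 lower, with a median of 0.52, led by the growth factor receptor gene Pdgfra (2.40) and the tenascin gene Tnc (2.28). Of 29 epithelial junction, keratin, and regulator genes, 3 were higher and 12 lower in EpiSCs, with a median of -0.50. Without the scaling 8 of the 29 were higher and 5 lower, with a median of 0.33, so the sign of its median turns on the scaling. Over all genes the unscaled shares were 42.8% higher and 8.43% lower with a median of 0.85, against 27.6% and 17.2% in the epithelial list, which lay below all genes with either scaling. Of the 25 mesenchymal genes 24 were higher and 0 lower without the scaling. With the scaling, the epithelial list genes higher in EpiSCs included the simple epithelial keratins Krt8 (2.07) and Krt18 (1.82). The lowest ratios of that list were those of the epithelial transcription factor gene Elf3 (-2.76) and the trafficking gene Rab25 (-2.70). In Nanog-/- ESCs 0 of the 29 were higher and 3 lower, with a median of -0.12, among them the splicing regulator gene Esrp1 (-1.92) and Rab25 (-1.83).

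Of 12 other EMT transcription factor genes at 1 RPKM or more, 6 were higher and 2 lower in EpiSCs, with a median of 1.07. T (Brachyury), a primitive streak gene, had a log2 ratio of 5.76 and Sox9 of 3.96, while Klf8 was at -1.42. In Nanog-/- ESCs 4 of the 12 were higher, led by Hmga2 (2.70) and Twist2 (1.77), and 1 was lower, T (-1.03), with a median of 0.06. Of 4 other classical cadherin genes at 1 RPKM or more, Cdh4 (1.76) and Cdh22 (1.17) were higher in EpiSCs, and Cdh3 (-1.02) was lower in Nanog-/- ESCs. Of 12 genes for EMT inducing ligands, their receptors, and Smads, 8 were higher and 0 lower in EpiSCs, with a median of 1.95, led by Tgfb2 (3.92) and Fgf8 (2.54). In Nanog-/- ESCs Inhba was higher (1.49) and Fgf8 lower (-1.85), and the median was 0.12.

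Markers of the labelled cells and of other cell types were read from the same values, and they differed in direction and size between the states. The 6 naive pluripotency markers in the table were all lower in EpiSCs, with a summed level of 820 RPKM in WT ESCs, 592 in Nanog-/- ESCs, and 9.45 in EpiSCs. The 5 general pluripotency markers summed to 2295, 1858, and 1290 RPKM, and 2 of them, Sox2 and Nanog, were lower in EpiSCs. Without the scaling the EpiSC sum was 2428 RPKM, above that of WT ESCs, and 1 of the 5, Sox2, was lower. Of 6 primed markers, Fgf5 (log2 ratio 4.36) and Sox3 (2.72) were higher in EpiSCs, none was lower, and the other 4 did not reach 2-fold. In Nanog-/- ESCs none of the 6 was higher, and Zic2 (-2.43) and Fgf5 (-1.44) were lower than in WT ESCs. Of 7 fibroblast markers, 5 were higher in EpiSCs and 2, Pdgfra and Postn, in Nanog-/- ESCs. Their summed level was 50.2 RPKM in WT ESCs, 70.0 in Nanog-/- ESCs, and 223 in EpiSCs, and none was at 0. Some of these, such as Pdgfra and Col3a1, are also in the mesenchymal list. Of 6 extraembryonic endoderm markers, 4 were higher in EpiSCs and 5 in Nanog-/- ESCs, with Gata6 (3.50) and Sox7 (3.18) foremost in the latter, and the summed level was 4.49, 69.4, and 66.0 RPKM. The EpiSC and Nanog-/- sums rest on different genes: Foxa2 alone made up 48.1 RPKM in EpiSCs, against 2.54 in Nanog-/- ESCs, and Sox7 was at 0.190 and 9.18 RPKM. Of 4 mesendoderm markers at 1 RPKM or more, all were higher in EpiSCs, and the sum over the 5 in the table was 7.82, 4.86, and 278 RPKM, of which T, also in the list of EMT factors, made up 236 in EpiSCs. Of 3 neural markers in the table Nes (3.50) was higher in EpiSCs, with summed levels of 13.3, 14.7, and 145 RPKM. Nes alone made up 144 RPKM of the EpiSC sum. Pax6 was at 1.45 RPKM in WT ESCs and 1.07 in EpiSCs (log2 ratio -0.24), and Zic1 was under 1 RPKM in every state. The 2 trophoblast markers in the table summed to 0.564, 1.79, and 0.437 RPKM. In these bulk samples more cells of such a type and more RNA per cell cannot be told apart, and the part of these markers in the values of the 9 genes was not tested.

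The 9 promoter fragments made 44 contacts in WT ESCs, 24 in Nanog-/- ESCs, and 43 in EpiSCs, which are 73 different fragment pairs. A contact is a pair of HindIII restriction fragments with a CHiCAGO score of 5 or more, a score that weighs the observed reads against those a background model predicts for the same separation. No contact joined different chromosomes. Snai2 had 19 contacts in WT ESCs, 8 in Nanog-/- ESCs, and 14 in EpiSCs, Snai1 had 7, 11, and 8, and Vim had 7, 2, and 13. These 3 promoters held most of the contacts in every list. Zeb1 had 3, 1, and 4, Epcam 2, 1, and 2, and Cdh1 2, 1, and 1. Zeb2 had 3 and Cdh2 had 1 in WT ESCs and neither had any in the other lists, and Twist1 had 1, in EpiSCs.

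Against WT ESCs, 4 of the 9 promoters had more contacts in EpiSCs (Vim, Snai1, Zeb1, and Twist1; 33.5% of all promoter fragments) and 4 had fewer (Snai2, Zeb2, Cdh1, and Cdh2; 52.8%). In Nanog-/- ESCs 1 had more (Snai1; 21.6%) and 7 had fewer (60.7%). The Nanog-/- list was also the smallest, with a median of 2 contacts per promoter fragment against 3 in each of the others and 25.3% of fragments without any, compared with 10.3% in WT ESCs and 15.0% in EpiSCs. Each list was combined over replicates, so a difference between lists has no replicate check, and a pair missing from a list is one that was not called there.

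**Figure D4:**
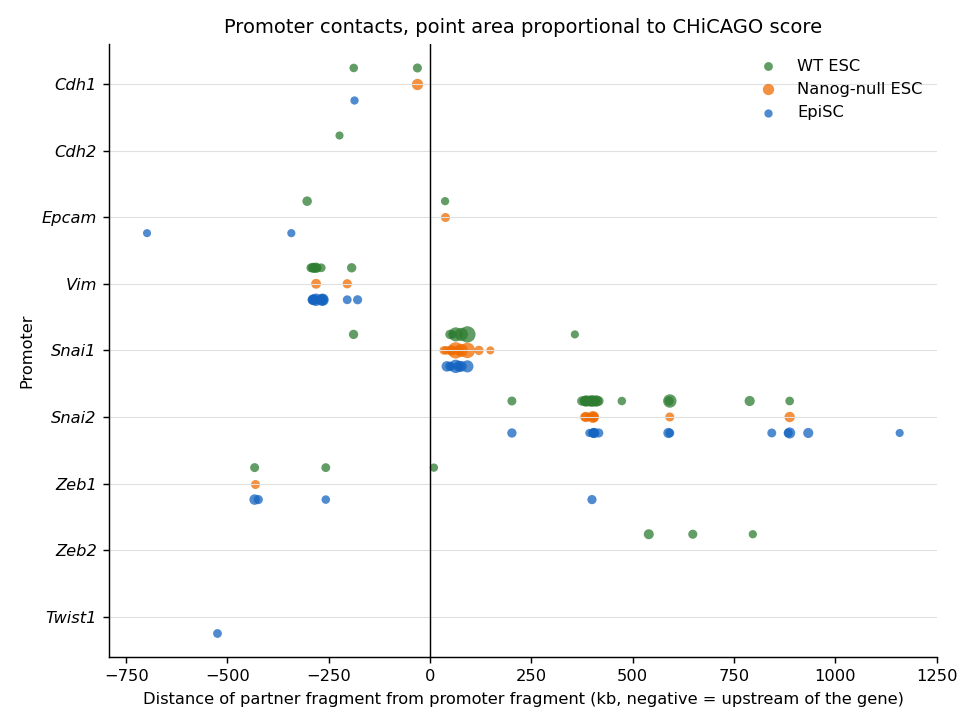
Contacts of the 9 promoters by the distance between fragment midpoints (kb, negative upstream of the gene), in WT ESCs (green), Nanog-/- ESCs (orange), and EpiSCs (blue). Each point is 1 fragment pair, with an area proportional to its CHiCAGO score. Contacts of Vim lie upstream, those of Snai2 downstream as far as 1159 kb, and Zeb2 has 3 in WT ESCs only.

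The median contact distance was 366 kb in WT ESCs, 135 kb in Nanog-/- ESCs, and 287 kb in EpiSCs, against 139, 74.1, and 141 kb over the whole lists. For Snai1 alone the medians were 77.2, 69.9, and 66.7 kb, below those of the whole lists. For Snai2 they were 404, 403, and 502 kb, and for Vim 281, 243 (2 contacts), and 267 kb. The medians over the 9 promoters thus depend on how many contacts each promoter gave to a list. Of these contacts Snai1 gave 7 of 44, 11 of 24, and 8 of 43. Over 800 kb there were 1, 1, and 5 contacts, all of Snai2. Over the whole lists 1.30%, 0.37%, and 1.78% of the pairs within a chromosome were that long. Partner fragments were captured promoters themselves in 11, 6, and 9 of the 44, 24, and 43 contacts. Over the whole lists 23.1%, 22.0%, and 18.4% of pairs joined captured promoters, so these counts are given as a description only.

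All contacts of Vim (promoter fragment chr2:13568405-13578846) ran upstream into Cubn, the gene of the endocytic receptor cubilin. Most fell in chr2:13278015-13311065, 264 to 294 kb from the promoter over exons and introns of Cubn, with 6 partner fragments in WT ESCs, 1 in Nanog-/- ESCs, and 11 in EpiSCs. These covered 10.8, 2.74, and 17.3 kb, and the mean read count per fragment was 7.67, 6.00, and 6.82. The lowest count called there was 7 reads in WT ESCs and 5 in EpiSCs, so these means are taken over fragments past different read counts and were not compared. The only pair in all 3 lists was chr2:13290947-13293686, an intronic fragment at 281 kb, with 9 reads (score 8.26) in WT ESCs, 6 (7.48) in Nanog-/- ESCs, and 9 (11.9) in EpiSCs. Exact Poisson 95% intervals for 9 and 6 reads are 4.12 to 17.1 and 2.20 to 13.1, which overlap widely and cover counting error only. Cubn itself was at 0.392 RPKM in WT ESCs, 7.65 in Nanog-/- ESCs, and 0.0744 in EpiSCs. The WT and EpiSC values are both under 1 RPKM, with a log2 ratio of -0.37, so Cubn was not ranked between these 2 states. A link between Cubn RNA and the Vim contacts was not tested.

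The shortest of these fragments, chr2:13308164-13308319 (156 bases, plus strand, in an intron of Cubn), was called in EpiSCs only, with 9 reads and a score of 11.8. It lies in a run of 5 adjoining fragments that were all called in EpiSCs only. The next fragment to the left of this run, chr2:13304168-13305886, was called in WT ESCs only, with 7 reads and a score of 5.86. The 156-base fragment is shown as the Vim contact fragment with the most reads in EpiSCs that the other lists lack. Capitals mark what remains of the HindIII site at its left end.
Vim contact fragment: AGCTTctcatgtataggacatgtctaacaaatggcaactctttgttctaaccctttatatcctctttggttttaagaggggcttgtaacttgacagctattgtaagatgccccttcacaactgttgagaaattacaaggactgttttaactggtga

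The contacts of Snai1 (chr2:167536580-167539839) lay mainly in 1 region downstream, chr2:167569364-167634819, at 33.7 to 92.1 kb, which runs into Ube2v1, the gene of a ubiquitin conjugating enzyme variant. This region held 5 partner fragments in WT ESCs, 9 in Nanog-/- ESCs, and 8 in EpiSCs, with a mean read count of 22.4, 13.1, and 18.5. The lowest counts called there were 14, 9, and 13 reads, so these means were not compared. Of the region's pairs, 3 were in all lists. The pair at 63.4 kb had 26 reads (score 15.2) in WT ESCs, 21 (20.3) in Nanog-/- ESCs, and 25 (13.7) in EpiSCs. The pair at 77.2 kb had 21 (13.2), 14 (13.2), and 16 (9.01), and the pair at 92.1 kb had 34 (20.4), 19 (18.3), and 21 (11.3). The intervals of the last are 23.6 to 47.5 reads in WT ESCs, 11.4 to 29.7 in Nanog-/- ESCs, and 13.0 to 32.1 in EpiSCs, which overlap. In WT ESCs and Nanog-/- ESCs these 3 pairs had the most reads of all Snai1 contacts, while in EpiSCs a fragment at 41.3 kb had 23 reads (8.49). The Nanog-/- list alone also joined Snai1 to the promoters of Tmem189 at 121 kb (8 reads, score 6.71) and of Cebpb, a transcription factor gene, at 149 kb (6 reads, 5.01). The WT list alone joined it to the B4galt5 promoter at 189 kb upstream (10 reads, 6.65) and to a fragment at 357 kb (5 reads, 5.10). Cebpb was at 7.97, 15.4, and 19.8 RPKM in WT ESCs, Nanog-/- ESCs, and EpiSCs.

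Snai2 (chr16:14703937-14706226) had the most contacts of the 9 promoters in WT ESCs and EpiSCs, and Snai1 had the most in Nanog-/- ESCs. Snai2 was at percentile 92.1 of all promoter fragments in WT ESCs, 79.0 in Nanog-/- ESCs, and 89.6 in EpiSCs, although its RNA was among the lowest of the 9. All its contacts ran downstream. A region at chr16:15074016-15124854, 374 to 416 kb away, held 13 partner fragments in WT ESCs, 6 in Nanog-/- ESCs, and 6 in EpiSCs. None of these fragments overlapped an annotated protein-coding gene. The fragments covered 45.8, 14.3, and 15.7 kb, with a mean read count of 11.3, 7.50, and 10.3. The lowest counts called there were 10, 6, and 9 reads, so these means were not compared either. Of the region's pairs 4 were in all lists, with 10 to 12 reads in WT ESCs, 6 to 10 in Nanog-/- ESCs, and 9 to 12 in EpiSCs. Farther out, a fragment at 592 kb had 13 reads (score 13.8) in WT ESCs, 6 (6.23) in Nanog-/- ESCs, and 8 (6.04) in EpiSCs, and the promoter of Ube2v2 at 887 kb had 4 (5.81), 4 (8.27), and 5 (9.46). EpiSCs alone had contacts with the promoters of the replication gene Mcm4 at 933 kb (5 reads, 7.86) and of Mzt2 at 1159 kb (5 reads, 5.07).

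**Figure D5:**
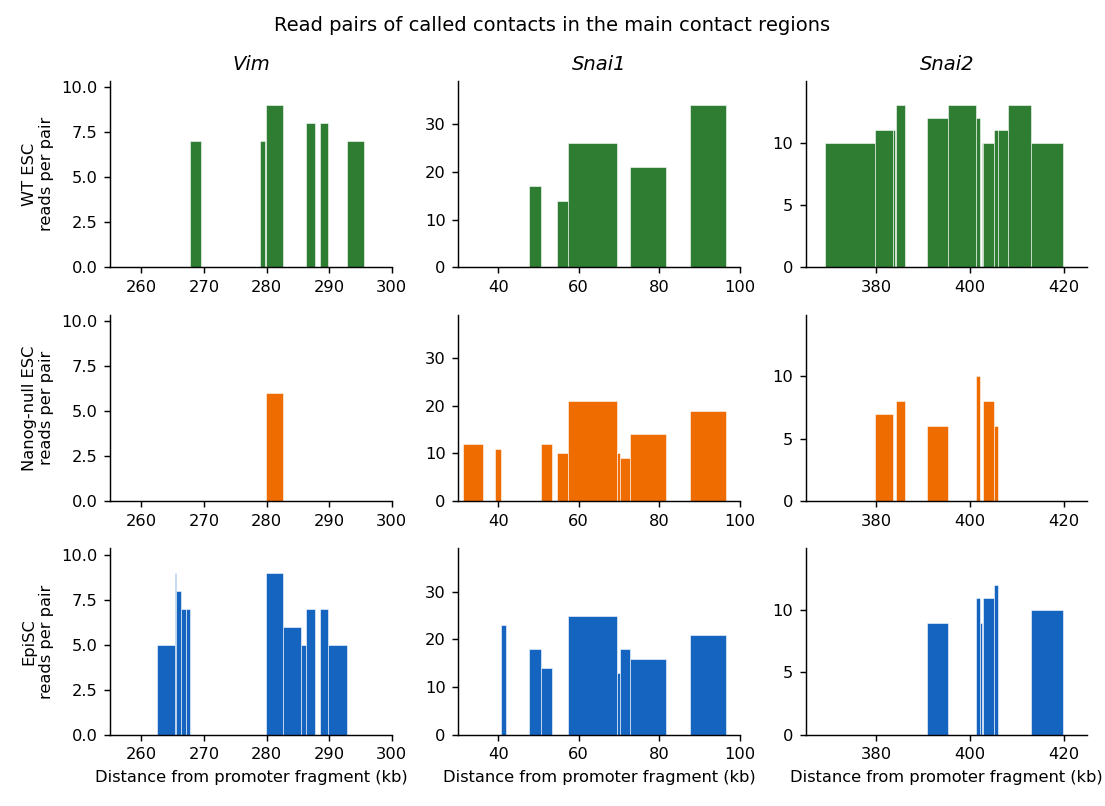
Read pairs of each called contact (vertical axis) against the distance of the partner fragment from the promoter fragment (kb) in the main contact regions of Vim, Snai1, and Snai2 (columns) in the 3 cell states (rows), with bar widths equal to fragment lengths. Gaps are fragments that were not called. Vim has 6, 1, and 11 called fragments in WT ESCs, Nanog-/- ESCs, and EpiSCs, Snai1 has 5, 9, and 8, and Snai2 has 13, 6, and 6.

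Zeb1 (chr18:5588334-5595399) had 1 pair in all lists, an intergenic fragment 433 kb upstream with 5 reads (score 6.19) in WT ESCs, 4 (6.18) in Nanog-/- ESCs, and 6 (8.52) in EpiSCs. It contacted the promoter of Zfp438 at 257 kb in WT ESCs (7 reads, 5.99) and EpiSCs (6 reads, 5.61). A fragment inside its own intron at 9.36 kb was called in WT ESCs only, with 49 reads and a score of 5.37. EpiSCs alone had a contact 400 kb downstream (5 reads, 6.50). Zeb2 (chr2:45115778-45118581) had 3 contacts downstream in WT ESCs, at 540 kb over a Gtdc1 exon (8 reads, 7.68), at 648 kb (6 reads, 6.37), and at 796 kb over an Arhgap15 exon (5 reads, 5.25), and none elsewhere. The state with the only Zeb2 contacts was therefore the one with the least Zeb2 RNA. Twist1 (chr12:33955147-33960975) contacted the promoter of Twistnb 527 kb upstream in EpiSCs (6 reads, 5.93). Twistnb was at 44.1, 62.0, and 32.1 RPKM in WT ESCs, Nanog-/- ESCs, and EpiSCs.

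The cadherin and Epcam promoters had few contacts, and none was in all lists. Cdh1 (chr8:106599830-106606837) contacted the promoter of Zfp90 188 kb upstream in WT ESCs (5 reads, score 5.63) and EpiSCs (4 reads, 5.28). It contacted the promoter of the predicted gene Gm10073 at 31.3 kb in WT ESCs (13 reads, 6.28) and Nanog-/- ESCs (10 reads, 9.85). Gm10073 was at 66.4, 55.6, and 3.09 RPKM in WT ESCs, Nanog-/- ESCs, and EpiSCs, and was thus low in the state without that call. Cdh2 (chr18:16808947-16811041) had 1 contact, in WT ESCs, 225 kb upstream with 4 reads and a score of 5.05, close to the list's minimum, and none was called in EpiSCs, where its RNA was highest. Epcam (chr17:87632896-87638052) had contacts in EpiSCs at 342 kb over Ttc7 (6 reads, 5.13) and at 699 kb (4 reads, 5.03).

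Of the 44 contacts in WT ESCs, 18 were also in the EpiSC list (40.9%, Wilson 95% interval 27.7 to 55.6) and 16 in the Nanog-/- list (36.4%, 23.8 to 51.1). Over all pairs of the WT list these shares were 39.6% and 41.8%, inside both intervals. In both other lists there were 11 (25.0%, against 24.9% of all pairs): 6 of Snai2, 3 of Snai1, and 1 each of Vim and Zeb1. Contacts of 1 promoter lie on neighboring fragments and share reads of the same captured fragment, so the intervals are too narrow as a measure of error. Joining partner fragments of a promoter that lay within 10 kb of each other gave 32 regions. Of these, 22 were found in WT ESCs, 11 in Nanog-/- ESCs, and 18 in EpiSCs, and 7 in all lists. Regions were not joined for other promoters, so these counts have no share over all promoters beside them and are a description only. The Nanog-/- list was also the smallest.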

How the data were processed

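RNA-seq and promoter capture Hi-C of WT ESCs, Nanog-/- ESCs, and EpiSCs were used. The EpiSC ChIP-seq samples were not analysed here. For RNA, the authors deposited RPKM, already reduced to 1 median per group, so that RNA depth per sample is unknown. The submitters' processing notes name Trim Galore, TopHat, and DESeq2 for RNA and Bowtie 1.1.0 for other data, and the column named BT12 was taken as Nanog-/- ESCs because the series design sets it against ESCs and no other RNA group is left. The table's fold change and p-value columns hold the authors' own comparisons and were not used. For PCHi-C, the authors mapped reads with HiCUP, combined 2 biological replicates per cell type after normalizing them, and deposited for each pair of HindIII fragments a read count and a CHiCAGO score of at least 5 (GRCm38). Since combining followed a normalization, intervals on these counts are approximate and cover counting error only.

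Here, duplicate rows of the 15741 in the RNA table were reduced to 15646 genes, EpiSC RPKM was divided by the median EpiSC/WT ratio, and log2 ratios were taken with a pseudocount of 1 RPKM. Nothing was tested, since each state has 1 value, and all genes at 1 RPKM or more in a state served as the background. Fragment pairs listed from both ends were counted once, with the larger read count and, separately, the larger score of their entries. Over the whole lists such entries differed by at most 12 reads in WT ESCs, 93 in Nanog-/- ESCs, and 68 in EpiSCs. Distances ran between fragment midpoints. All 82 fragments in the contacts of the 9 promoters had a HindIII site within 8 bases of both ends in GRCm38.p6. Fragments were annotated with the exons and introns of GENCODE protein-coding genes only, and intergenic means outside these genes. The calculations (Python 3.11.15, pandas 2.3.3) were tested on simulated data. The 10 genes and all gene lists were chosen with earlier results of these data known. Named were all 10 genes, at most 2 genes per list and direction, marker genes, the 3 genes nearest in pattern to each, and for contacts the highest score, most reads, and longest distance per promoter and list and every pair in all 3 lists. Other contacts were named after their values were seen, and a few items the rule would name are not reported here. Alternatives varied the pseudocount, scaling, fold, score, distance, and match of fragments.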

Additional observations from a re-analysis of the deposited data

How the results depend on the processing

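No paired analysis was possible because the RNA values are group medians and the PCHi-C lists are combined over replicates. For the same reason no replicate could be left out. With no scaling, the number of the 9 genes higher in EpiSCs than in Nanog-/- ESCs went from 2 to 6, and the number lower in EpiSCs than in WT ESCs from 1 to 0. With a pseudocount of 0.1 RPKM 5 genes, and with 0.5 RPKM 2 genes, were higher in Nanog-/- than in WT ESCs in place of 1. At a 1.5-fold limit 6 genes were higher in Nanog-/- than in WT ESCs, and 4 were higher in EpiSCs than in Nanog-/- ESCs. The shares of all genes called at these pseudocounts and at this limit were not computed, so these counts were not compared with all genes. At a score of 7 or more there were 20, 10, and 19 contacts in WT ESCs, Nanog-/- ESCs, and EpiSCs, and at 10 or more 6, 4, and 4. The share of WT contacts also found in EpiSCs was 60.0% for WT scores of 7 or more and 63.6% when a partner within 5 kb counted. The share found in Nanog-/- ESCs was 55.0% and 59.1%, and 56.5% for contacts of 10 reads or more. These shares were not computed over all pairs at the same settings. Whether they differ from those of other promoters is therefore unknown. Of these summary values 34 alternatives stayed within their limits and 17 moved. Of single genes 140 kept their call, 13 newly passed 2-fold, and 8 passed the 1.5-fold limit but not 2-fold. Only 1, Cdh1, no longer passed 2-fold. Some of the unchanged values could not have changed. Keeping only genes at 1 RPKM or more removed none of the 9. Scaling Nanog-/- values as well cannot alter EpiSCs against WT ESCs, and dropping the scaling cannot alter Nanog-/- against WT ESCs. The counts of unchanged values therefore overstate how stable the results are. With no scaling, 3 log2 ratios short of 2-fold in the values reported changed sign: Epcam between EpiSCs and WT ESCs (0.76), and Cdh1 (0.71) and Snai1 (0.25) between EpiSCs and Nanog-/- ESCs. The effect of depth on the calling of contacts was not tested; the lowest read count of a contact here was 4.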
